A study of Mus musculus with 45 samples.

Results

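Ageing was examined in the hippocampus of control mice by setting samples taken at 12 months of age against samples taken at 4 months. All of these mice were C57BL/6 and carried Apoe(fl/fl), a floxed form of the gene for apolipoprotein E, and none carried Csf1r-cre or 5xFAD, so Cre was absent and the floxed gene was left intact. The samples were chosen by their titles: 3 at 12 months and 8 at 4 months, 11 of the 45 RNA-seq samples of the series. The rest carry Csf1r-cre, which expresses Cre in microglia and other myeloid cells, or 5xFAD, a set of human transgenes that gives amyloid plaques, driven by the neuronal Thy1 promoter, or both. Of these, 12 and 4 months in Apoe(fl/fl) Csf1r-cre mice (7 and 6 samples) and in Apoe(fl/fl) 5xFAD mice (7 and 5 samples) were set beside the control mice. The 12-month 5xFAD samples have titles without Csf1r-cre but a strain field that includes it, and the titles were followed. The labels do not give sex, and they do not say that each sample came from a separate animal, so the p-values measure the spread between samples.

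The hippocampus holds the granule cells of the dentate gyrus, the pyramidal cells of the CA fields, interneurons, glia and vessels, and it borders the choroid plexus and the thalamus. In ageing rodents it is known for a loss of new neurons, for microglia and astrocytes that express more complement and antigen presentation genes, and for changes in the matrix between cells. At 12 months a mouse is middle-aged, and apolipoprotein E, made mainly by astrocytes and in disease also by microglia, is the main lipid carrier of the brain.

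Each library held an estimated 15243080 to 19611070 reads in genes, worked out from the deposited TPM values (read counts scaled for gene length and library total). On this estimate, 1 read on 1000 bases of transcript was worth 0.0639 to 0.0902 TPM. Replicate 2 at 12 months stood apart: its median correlation with the other libraries was 0.939, against 0.961 to 0.974 in the other 10 control libraries, and 16238 genes were above 0, against 19620 to 21799. Gm23935, a short predicted gene that the table lists as a miRNA, took 0.427% to 28.8% of all TPM at 4 months and 3.14% to 7.56% at 12 months. Ddx3y, a gene of the Y chromosome, was at or above 1 TPM in 1 of 3 libraries at 12 months and in 5 of 8 at 4 months, so the sexes were mixed at both ages. Markers of tissue next to the hippocampus also varied between samples and are given before the other genes.

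Markers of thalamic neurons were lower at 12 months than in most 4-month samples. The 11 thalamus markers summed to 82.0, 134 and 217 TPM in the 3 samples at 12 months, and to between 149 and 654 (median 458) in the 8 at 4 months. A single 4-month library, replicate 1, lay within the range of the 12-month samples. Slc17a6, the vesicular glutamate transporter of subcortical neurons, stood at 2.50, 21.5 and 16.4 TPM at 12 months, below all 8 samples at 4 months (21.9 to 84.8, median 47.1). Tcf7l2, a transcription factor of thalamic neurons and of newly formed oligodendrocytes, stood at 2.01, 3.15 and 4.06 TPM against 3.30 to 58.7 (median 27.1). Ramp3, a receptor activity-modifying protein, stood at 18.4, 15.4 and 16.8 TPM against 15.2 to 116. All 11 markers had a negative log2 fold change (median -1.72, or -1.68 without replicate 2 at 12 months), 8 had an unadjusted p under 0.05, and none was called after adjustment.

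Markers of the striatum ran the other way and split the 12-month samples. The 14 striatum markers summed to 6281, 7892 and 260.0 TPM at 12 months and to between 207 and 3737 (median 1120) at 4 months. Replicates 1 and 2 at 12 months were above every 4-month library, and replicate 3 was among the lowest. Ppp1r1b, the dopamine-regulated phosphatase inhibitor of medium spiny neurons, stood at 1600.0, 2439 and 150 TPM against 67.6 to 994. Drd2, the D2 dopamine receptor, stood at 81.2, 123 and 3.17 TPM against 0.214 to 59.3. The list's median log2 fold change was 1.20 over all samples, 0.26 without replicate 2, 0.39 without replicate 1 and 2.88 without replicate 3 at 12 months.

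The choroid plexus, which makes cerebrospinal fluid, was represented just as unevenly. Its 14 markers summed to 401, 164 and 8769 TPM at 12 months and to between 106 and 7905 (median 1617) at 4 months. Otx2, a transcription factor of choroid plexus epithelium, was listed at 1.56, 0 and 29.6 TPM at 12 months and at 0 to 40.0 TPM at 4 months. The groups overlapped throughout, and the list's median moved from -0.56 to 0.47 without replicate 2 and to -2.15 without replicate 3 at 12 months.

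The hippocampal markers were present in most samples, with replicate 2 at 12 months as the exception for dentate granule cells. C1ql2, a synaptic organiser of dentate granule cells, stood at 48.0, 0.975 and 99.7 TPM at 12 months and at 19.2 to 129 (median 90.5) at 4 months. Prox1, the transcription factor that defines granule cells, stood at 5.14, 2.06 and 5.71 TPM against 1.76 to 18.8. Dsp, which encodes desmoplakin, and Tdo2, which encodes tryptophan dioxygenase, were both listed at 0 in replicate 2. The 11 dentate markers together, which include genes shared with other neurons, summed to 244, 262 and 276 TPM at 12 months, within the 4-month range of 173 to 459. Markers of CA pyramidal cells summed to 644, 803 and 1095 TPM, within the 4-month range of 551 to 1123. Wfs1, a membrane protein of CA1 pyramidal cells, stood at 54.6, 81.6 and 85.6 TPM against 21.8 to 83.8.

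**Figure D1:**
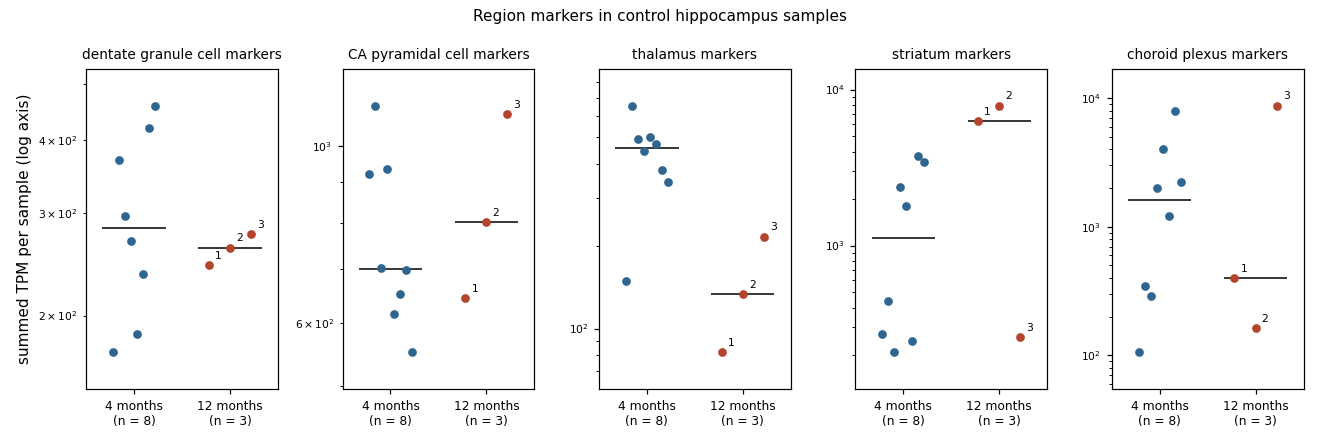
Summed TPM (log axis) of marker genes for dentate granule cells, CA pyramidal cells, thalamus, striatum and choroid plexus in the 8 control samples at 4 months and the 3 at 12 months, with the replicate number beside each 12-month point and lines at the group medians. Replicates 1 and 2 at 12 months have the highest striatum sums (6281 and 7892 TPM), and the 12-month thalamus sums reach at most 217 TPM.

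No gene was called between 12 and 4 months in control mice. Over the 18659 genes tested with limma on log2(TPM + 0.5), the lowest Benjamini-Hochberg adjusted p was 0.135, so 0 genes (0%) passed the threshold of 0.05 in either direction. Without adjustment, 1077 genes (5.77%) had p under 0.05, of which 361 (1.93%) were higher and 716 (3.84%) lower at 12 months. Whatever the p, 61.1% of all genes were lower at 12 months, with a median log2 fold change of -0.07, and a list's share is read beside these values. A further fit, chosen after the data were seen, took the summed striatum, thalamus, choroid plexus and dentate markers as covariates. It moved all genes upward, to 36.5% lower and a median of 0.12, and lists in that fit are read beside those values. The summed thalamus markers nearly separated the ages, so this fit can also take up part of an age difference. Tcf7l2, Calb2 and Prox1 belong both to a covariate and to other lists read in it. Why a list moved in this fit was not tested. Chance alone gives 5% of genes an unadjusted p under 0.05. The 2 age groups did not overlap for 141 genes (0.756%), with 42 (0.225%) higher and 99 (0.531%) lower in all 3 samples at 12 months. The median standard error was 0.31 on the log2 scale, and the median 95% interval, before adjustment, reached 0.63 to either side. For most genes a call after adjustment asks for a larger change than that. In 397 genes the log2 fold change was at least 1 in either direction, and none of them was called. The 0 calls therefore do not exclude changes larger than 0.63. Leaving out replicate 3 at 12 months raised the count to 36 genes, leaving out replicate 1 gave 6, and leaving out replicate 2 gave 2. Scaling by median-of-ratios size factors in place of TPM gave 10 (7 higher and 3 lower).

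Apoe, on chromosome 7 (19696109 to 19699188, mm10), was among the most abundant messages at both ages. It stood at 3456, 2898 and 2729 TPM at 12 months and at 1979 to 4027 TPM (median 3501) at 4 months, and the groups overlapped. The mean difference was -0.11 on the log2 scale, with an exact two-sided permutation p of 0.648, where 0.00606 is the lowest p that the 165 arrangements allow. The 95% interval from limma ran from -0.59 to 0.38.

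The 10 genes with the lowest p were low in abundance, and 9 of them had a median below 3 TPM at 12 months. Their adjusted p ran from 0.135 to 0.285 by limma. Cited1 (chromosome X, 102247381 to 102252181), a transcriptional co-regulator, stood at 1.44, 1.05 and 5.63 TPM at 12 months, below all 8 samples at 4 months (7.39 to 14.4, median 9.11). Its log2 fold change was -1.96 ± 0.44 (SE), or -1.16 with the region markers as covariates. Icam2 (chromosome 11, 106377656 to 106388075), an adhesion molecule of endothelium, stood at 7.56, 1.15 and 4.28 TPM against 6.97 to 11.2, with a log2 fold change of -1.28 ± 0.29. That difference rests in part on replicate 2, since without it the log2 fold change was -0.65.

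Enzymes and signalling molecules made up most of the others with lower values at 12 months. Tph2 (chromosome 10, 115078641 to 115185022), the rate-limiting enzyme of neuronal serotonin synthesis, stood at 0.635, 0 and 0.413 TPM, below all samples at 4 months (0.964 to 2.85). Mmp9 (chromosome 2, 164940780 to 164955850), a secreted gelatinase that cleaves matrix, stood at 0.537, 0 and 0.582 TPM, likewise below all samples at 4 months (1.03 to 2.23). Both were at 0 in replicate 2, and without it their log2 fold changes were -1.08 and -0.90, from -1.42 ± 0.33 and -1.26 ± 0.30. Coa4 (chromosome 7, 100537071 to 100540369), an assembly factor of cytochrome c oxidase, stood at 2.54, 1.13 and 3.46 TPM against 3.49 to 6.41, with a log2 fold change of -0.97 (-0.60 without replicate 2). Grp (chromosome 18, 65872820 to 65886579), gastrin-releasing peptide, stood at 1.91, 0 and 9.12 TPM against 4.42 to 55.6. The groups overlapped, and its log2 fold change was -2.91 (-1.82 without replicate 2).

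The remaining 4 had higher values at 12 months. Cd72 (chromosome 4, 43446462 to 43454628), a lectin-like receptor of B cells and myeloid cells, stood at 1.40, 4.26 and 0.545 TPM at 12 months and at 0 to 0.536 TPM at 4 months, with a log2 fold change of 1.58 ± 0.38, and of 0.996 without replicate 2. Gdf7 (chromosome 12, 8297918 to 8301954), a ligand of the BMP family, stood at 0.438, 1.96 and 1.87 TPM against 0.0453 to 0.736, with a log2 fold change of 1.20 ± 0.25. Fhl4 (chromosome 10, 85096287 to 85102495), a LIM-domain protein, stood at 0.939, 1.61 and 0.859 TPM, above all samples at 4 months (0.170 to 0.687). Wnt8b (chromosome 19, 44493472 to 44514273), a Wnt ligand, stood at 0.778, 2.43 and 0.379 TPM against 0 to 0.628, with a log2 fold change of 1.05 (0.56 without replicate 2). The groups were separate for Cd72 and Fhl4 and overlapped for Gdf7 and Wnt8b.

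**Figure D2:**
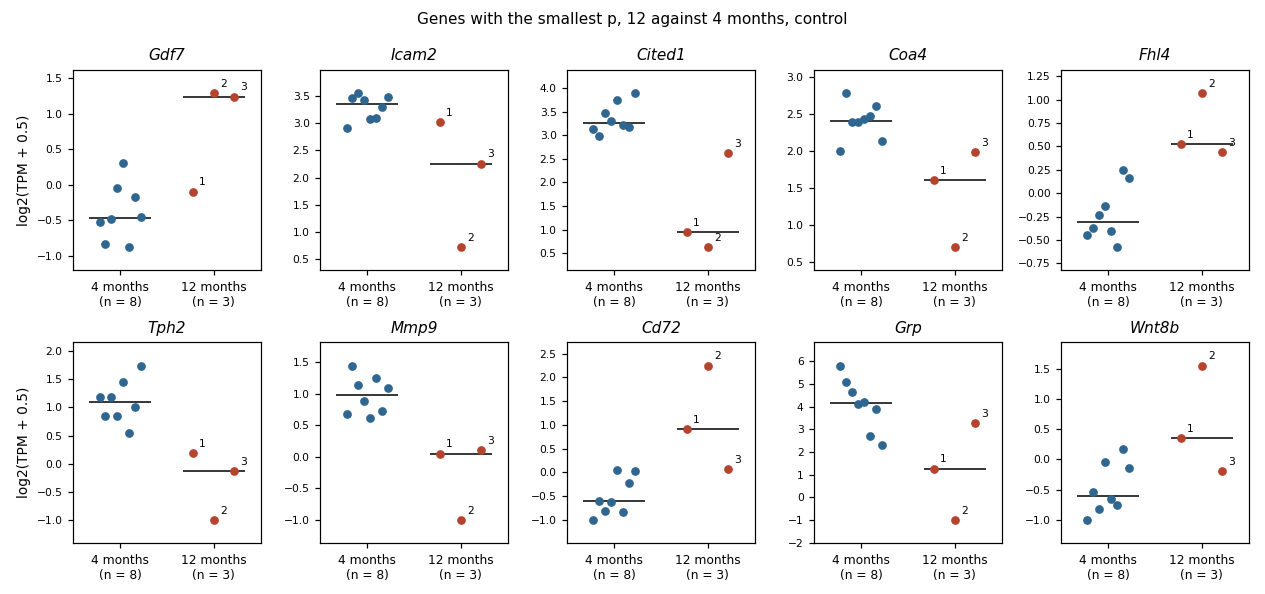
The 10 genes with the lowest p between 12 and 4 months in control mice, as log2(TPM + 0.5) in each sample (8 at 4 months, 3 at 12 months with their replicate numbers, lines at the medians). For 6 of the 10 the 2 ages do not overlap, against 141 (0.756%) of all 18659 genes tested. The 10 were chosen by p in this same comparison, so their separation is no further evidence of an age difference. Replicate 2 is the lowest or highest 12-month sample in all 10.

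Genes of microglia, the resident macrophages of the brain, differed little between the ages. Of 18 homeostatic microglia genes 13 were higher and 5 lower, with a median log2 fold change of 0.17 beside -0.07 over all genes tested, and none was called. The median was 0.07 without replicate 1 and 0.31 without replicate 3 at 12 months. With the region markers as covariates 12 of 18 were higher and the median was 0.08, below the 0.12 of all genes. Slc2a5, the fructose transporter of microglia, stood at 14.3, 13.3 and 10.8 TPM at 12 months, above all 8 samples at 4 months (5.53 to 9.66). Its log2 fold change was 0.71 ± 0.30 (adjusted p = 0.748 by limma). Gpr34, a lysophosphatidylserine receptor, stood at 18.5, 15.3 and 16.1 TPM, again above all samples at 4 months (9.62 to 13.2). Tmem119, a microglial membrane protein, stood at 52.5, 36.4 and 43.7 TPM against 29.6 to 41.4. The upper ends of the 95% intervals of these 3 genes lay between a log2 fold change of 0.82 and 1.32.

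The genes that mark microglia around amyloid plaques did not move as a group. Of 29 tested 17 were higher and 12 lower, with a median log2 fold change of 0.02, which became 0.26 without replicate 2 and -0.09 without replicate 3 at 12 months. Cst7, which encodes cystatin F, stood at 0.783, 1.40 and 0.841 TPM against 0 to 0.956 (median 0.211). Trem2, the lipid receptor of microglia, stood at 27.1, 19.1 and 16.5 TPM against 13.5 to 21.4. Both sets of samples overlapped.

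Complement and antigen presentation genes, which label synapses for removal and display peptides to T cells, were mixed. Of 13 complement genes 7 were higher, with a median log2 fold change of 0.06 (0.35 without replicate 2). C1qa, a chain of the initiating component, stood at 234, 177 and 182 TPM at 12 months, above all samples at 4 months (113 to 175), with a log2 fold change of 0.48 ± 0.24 (adjusted p = 0.863 by limma), or 0.18 with the region markers as covariates. C4b, a component that astrocytes and oligodendrocytes make in old mice, stood at 50.0, 24.2 and 38.8 TPM against 12.0 to 36.3. C2, a protease of the same pathway, stood at 0.194, 0 and 0.442 TPM against 0.114 to 1.64. C1qa alone of these 3 was separate between the ages, beside 0.756% of all genes tested.

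Class II molecules ranged widely within each age. H2-Aa, the class II alpha chain, was at 2.93, 0 and 12.2 TPM at 12 months and at 1.64 to 26.1 TPM at 4 months, and H2-Eb1, a beta chain, at 1.04, 0 and 8.08 TPM against 0.807 to 16.2. Replicate 2 at 12 months was listed at 0 for both. Of 6 class II genes 5 were lower (median -0.62), and without replicate 2 the count was 2 and the median 0.12. Among 15 class I genes 6 were lower (median 0.05), and 4 to 9 were lower over leaving out 1 sample. Psmb9, an immunoproteasome subunit, stood at 6.07, 0.440 and 5.92 TPM against 4.15 to 7.29, and H2-Q7 at 3.61, 2.90 and 1.04 TPM against 0.773 to 2.22, although reads of such near-identical class I genes cannot be assigned with certainty. Of the 28 interferon response genes 14 were lower, or 9 without replicate 2 at 12 months and 21 without replicate 1 at 4 months. Ifi27l2a, an interferon-induced membrane protein, stood at 8.01, 4.91 and 8.46 TPM against a 4-month median of 3.37 and a lowest sample of 1.33, and Ifit2 at 4.48, 1.58 and 2.10 TPM against 2.39 to 6.85.

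Of 18 reactive astrocyte genes 10 were higher and 8 lower (median log2 fold change 0.03, or 0.31 without replicate 2). Lcn2, the iron-binding lipocalin that reactive astrocytes secrete, stood at 0.417, 0.966 and 5.13 TPM against 0 to 1.17, so that 1 of 3 samples was above the 4-month range. Of 15 general astrocyte genes 11 were lower (median -0.28), and with the region markers as covariates 2 were lower (median 0.17). Gjb6, the gap junction protein connexin 30, stood at 40.0, 22.1 and 119 TPM against 44.9 to 124. The range among the 3 samples at 12 months was wider than the distance between the ages.

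Genes of the oligodendrocyte lineage were read by stage, with no test between the stages. Of 12 genes of newly formed oligodendrocytes 11 were lower at 12 months. Their median log2 fold change was -0.62, and 4 of 12 had an unadjusted p under 0.05. One of the 4, Tcf7l2, is also a thalamus marker. Nkx2-2, a transcription factor of the lineage, stood at 8.66, 1.92 and 3.95 TPM against 5.52 to 9.19. Rras2, a small GTPase, stood at 4.26, 2.18 and 9.68 TPM against 5.77 to 9.25. With the region markers as covariates 6 of 12 were lower and the median was -0.01, beside 0.12 over all genes. Of 19 mature oligodendrocyte and myelin genes 13 were lower (median -0.07). This rested on single samples, since all 19 were lower without replicate 1 at 12 months (median -0.41) and 4 without replicate 3 (median 0.19). Their summed level was 11498, 5530 and 4817 TPM at 12 months against 4748 to 8419 at 4 months. Opalin, a myelin paranode protein, stood at 44.2, 19.4 and 14.3 TPM against 26.1 to 57.5. Of 12 precursor genes 8 were lower (median -0.11).

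In the main fit, genes of neurogenesis and of dividing cells were lower in shares not far above that of all genes (61.1%). Of 18 genes of neurogenesis and immature granule cells 13 were lower (median -0.36), and 9 were lower with the region markers as covariates (median -0.01, beside 0.12 over all genes). Calb2, the calcium-binding calretinin of immature granule cells and also of thalamic midline neurons, stood at 17.5, 3.04 and 52.6 TPM against 20.3 to 138. Nnat, a small membrane protein of developing neurons, stood at 394, 297 and 410.0 TPM against 402 to 1119. Fabp7, the fatty acid binding protein of radial glia and astrocytes, is in the lipid transport list and not among these 18. It stood at 28.3, 26.2 and 75.6 TPM against 46.1 to 138. Replicates 1 and 2 were below all 4-month samples and replicate 3 was inside their range. Of 16 cell cycle genes 12 were lower (median -0.31), and without replicate 2 at 12 months 7 were lower (median 0.03). Without replicate 1 the count was 14 (median -0.74). With the region markers as covariates it was 14 (median -0.52, beside 0.12 over all genes), with 5 at an unadjusted p under 0.05. In that fit the cell cycle share and median lay further from those of all genes than in the main fit. Nusap1, a spindle protein, stood at 0.378, 0.221 and 0.246 TPM against 0.323 to 1.88.

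Cell cycle inhibitors that mark senescent cells did not move together: 3 of 12 senescence genes were higher and 9 lower (median -0.10), and without replicate 2 at 12 months 5 were lower. Cdkn2a, which encodes the inhibitors p16 and p19, stood at 1.33, 1.95 and 0.432 TPM at 12 months, and at 0 to 0.373 TPM in 7 of the 8 samples at 4 months. The 4-month replicate 5, at 1.27 TPM, lay within the 12-month range. Its log2 fold change was 1.17 ± 0.41 (adjusted p = 0.622 by limma), or 0.65 with the region markers as covariates. Cdkn1a, which encodes p21, stood at 12.5, 26.1 and 38.3 TPM against 8.71 to 23.3. Cdkn2b stood at 1.44, 0.292 and 0.434 TPM against 0.533 to 1.97, and Il1b, a cytokine of the senescent secretome, at 0.0956, 0 and 0.0933 TPM against 0 to 1.17.

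Genes of the extracellular matrix shared a direction. All 22 matrix and collagen genes had a negative log2 fold change, with a median of -0.58 and 4 of 22 at an unadjusted p under 0.05, and none was called. Col1a1, a chain of fibrillar collagen, stood at 0.998, 2.01 and 2.29 TPM against 1.42 to 19.1 (median 7.96), with a log2 fold change of -1.73 ± 0.72, or -0.49 with the region markers as covariates. Col3a1 stood at 0.128, 0 and 0.792 TPM against 0.0378 to 8.16. Col5a1 stood at 0.0490, 0 and 0.0638 TPM, below all samples at 4 months (0.0784 to 0.775). Lama4, a laminin of vessel walls, stood at 0.410, 0.833 and 0.372 TPM against 0.509 to 1.99. The summed level of the list was 338, 353 and 330.2 TPM at 12 months against 210 to 956 at 4 months, where replicates 1 and 6 lay below the 12-month samples. Without replicate 2 at 12 months 21 of 22 were lower (median -0.64). With the region markers as covariates, 11 of 22 were lower and the median was -0.0018, beside 36.5% lower and 0.12 over all genes. In whole tissue, fewer cells of a type and less RNA per cell cannot be told apart.

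Perineuronal nets, the matrix around parvalbumin interneurons, showed the same direction as other matrix, with 8 of 10 genes lower (median -0.57, and -0.12 with the region markers as covariates, beside 0.12 over all genes). Acan, the core protein aggrecan, stood at 0.171, 0.0817 and 0.394 TPM at 12 months, below all samples at 4 months (0.424 to 1.85). Hapln4, a link protein, stood at 22.6, 76.8 and 54.3 TPM against 61.5 to 171. Pvalb, the parvalbumin of these interneurons, stood at 34.9, 67.8 and 94.3 TPM against 89.8 to 232, with a log2 fold change of -1.32 ± 0.37 (adjusted p = 0.490 by limma). Pvalb and Hapln4 are also abundant outside the hippocampus, and the part of dissected neighbouring tissue in their levels was not tested. Cnr1, the cannabinoid receptor of another interneuron class, had the opposite sign, at 52.7, 116 and 40.6 TPM against 21.3 to 44.5.

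**Figure D3:**
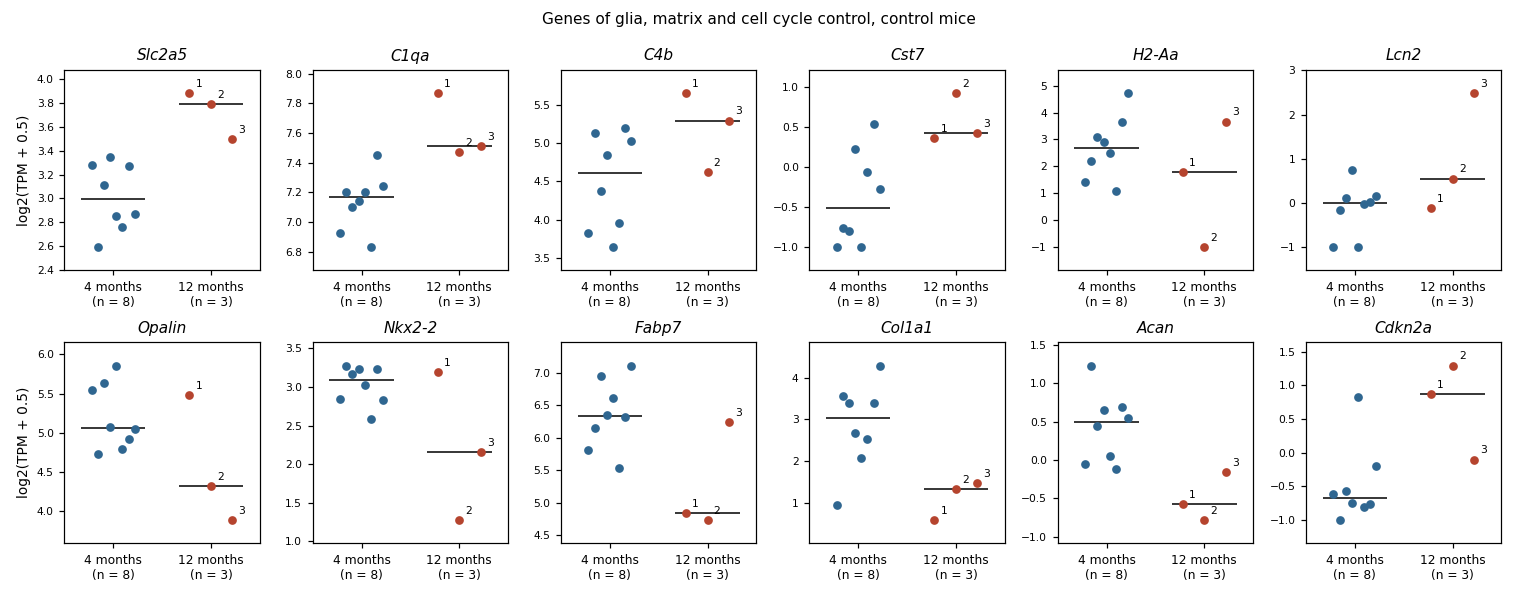
Levels, as log2(TPM + 0.5), of 12 genes of microglia (Slc2a5, C1qa, Cst7), immune response (C4b, H2-Aa, Lcn2), oligodendrocytes (Opalin, Nkx2-2), radial glia and astrocytes (Fabp7), matrix (Col1a1, Acan) and cell cycle arrest (Cdkn2a) in control mice, with the replicate number beside each 12-month point and lines at the medians. The ages are separate for Slc2a5, C1qa and Acan and overlap for the other 9, and none of the 12 was called. Over all 18659 genes tested the ages did not overlap for 141 (0.756%). The 12 are among the genes with the lowest p of their lists in this same comparison, so their separation is no further evidence of an age difference.

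Neuronal and synaptic genes depended on which 12-month sample was present. Of 25 synaptic genes 21 were lower (median -0.29). Without replicate 1 the count was 10 and the median 0.01, and without replicate 2 it was 23 and -0.54. With the region markers as covariates 6 were lower (median 0.16, beside 0.12 over all genes). Shank1, a scaffold of excitatory synapses, stood at 14.3, 82.4 and 52.5 TPM against 25.2 to 148. The 22 immediate early genes, which report recent neuronal activity, were 11 higher and 11 lower. Without replicate 2 at 12 months 16 were lower, without replicate 3 the count was 8, and with the region markers as covariates it was 4.

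The lists of lipid and lysosomal genes had medians from -0.18 to -0.03, beside -0.07 over all genes, and single genes went further. Of 19 cholesterol synthesis genes 15 were lower (median -0.18), and 10 without replicate 3 at 12 months. Mvd, mevalonate diphosphate decarboxylase, stood at 10.1, 13.5 and 8.57 TPM against 12.4 to 20.8, and Idi1, isopentenyl diphosphate isomerase, at 24.3, 17.3 and 25.5 TPM against 24.6 to 32.4. Of 19 lipid transport genes 13 were lower (median -0.08), 2 of them at an unadjusted p under 0.05. The lowest log2 fold change of that list was -1.08, and Fabp7, given above, belongs to it. Fabp5, an epidermal-type fatty acid binding protein, stood at 68.1, 53.4 and 61.6 TPM against 66.9 to 109, with a log2 fold change of -0.43 ± 0.14. Of 27 lysosomal genes 15 were lower, or 12 after median-of-ratios scaling. Ctss, cathepsin S of microglia, stood at 163, 133 and 95.3 TPM against 52.1 to 138, and Gla, alpha-galactosidase A, at 5.77, 3.75 and 8.72 TPM against 5.65 to 10.1.

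All 15 mitochondrially encoded genes were higher at 12 months on the TPM scale, with a median log2 fold change of 0.37. Over leaving out 1 control sample, 0 to 4 of the 15 were lower and the median ran from 0.28 to 0.45. Cytochrome c oxidase subunit mt-Co1 stood at 42312, 30827 and 43201 TPM against 21271 to 37542, so that replicates 1 and 3 were above all samples at 4 months. The nuclear-encoded respiratory chain genes did not share this: 7 of 23 were higher and 16 lower (median -0.07). Ribosomal protein genes had no fixed direction, with 15 of 26 lower on the TPM scale, 7 of 26 after median-of-ratios scaling, 1 of 26 without replicate 2 and 26 of 26 without replicate 1 at 12 months, and 25 of 26 with the region markers as covariates. Mt2, a metallothionein of the glucocorticoid list, stood at 18.2, 9.59 and 14.8 TPM against 3.14 to 16.1.

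Genes of lymphocytes overlapped between the ages. Trac, the constant region of the T-cell receptor alpha chain, stood at 0.344, 0 and 0.783 TPM against 0.246 to 2.90. Ighm, the constant region of immunoglobulin M, stood at 19.9, 25.1 and 37.2 TPM against 7.77 to 40.5. Igkc, the kappa light chain, stood at 2.47, 1.99 and 53.5 TPM against 0.509 to 21.7, with 1 high sample at each age. T cell and B cell lists had medians of -0.07 (8 genes) and 0.28 (6 genes).

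**Figure D4:**
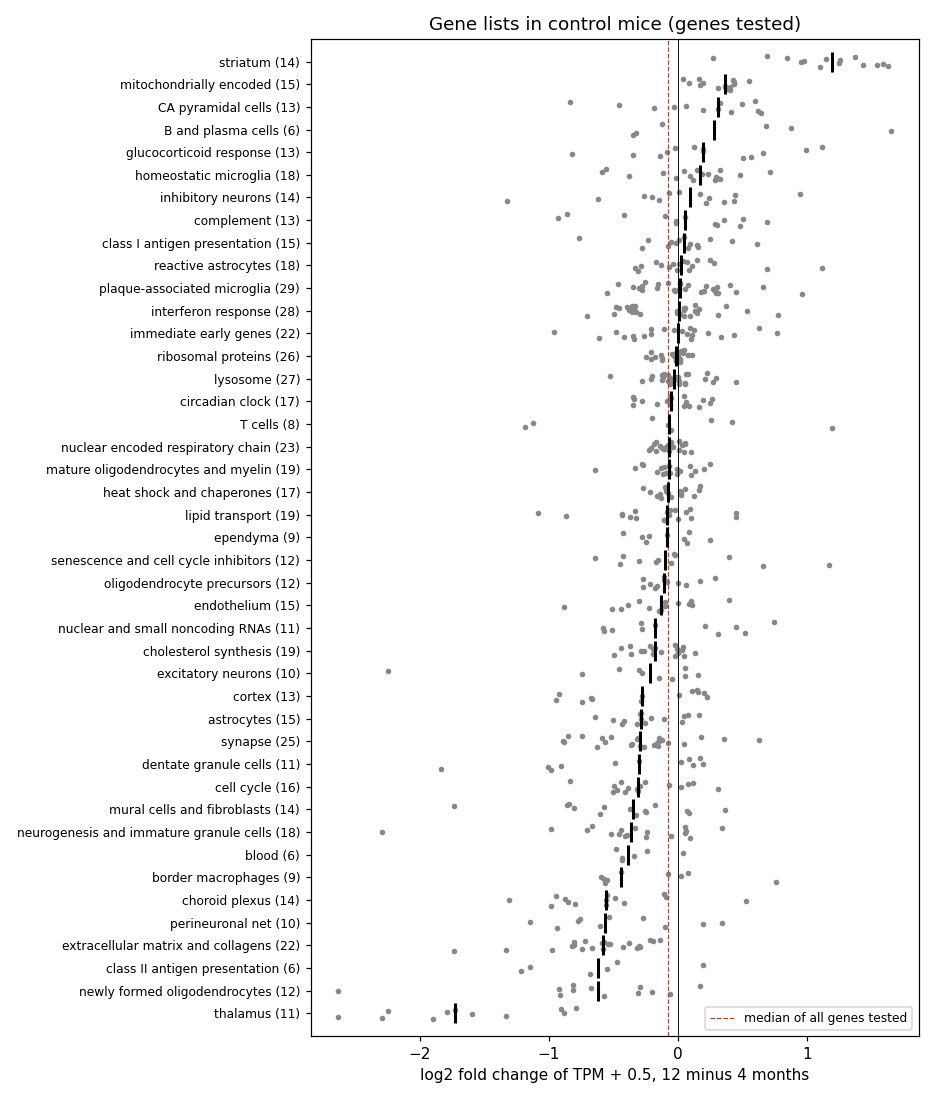
Log2 fold change (12 minus 4 months) of each tested gene of 43 lists in control mice, with 1 grey point per gene, a black bar at each list's median, the number of genes tested in brackets and the median of all 18659 genes (-0.07) as a dashed line. Thalamus markers (median -1.72) and striatum markers (median 1.20) lie at the ends, and 35 of the 43 lists have medians within 0.4 of 0.

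The same interval of age was next compared between control mice and mice with amyloid pathology. In 5xFAD mice 505 genes (2.71%) were called between 12 and 4 months, 501 higher (2.69%) and 4 lower (0.0214%), and 2566 (13.8%) had an unadjusted p under 0.05. At 12 months the strain field of the 5xFAD samples includes Csf1r-cre and their titles do not, and groups follow the titles. If the strain field is right, age and Csf1r-cre cannot be told apart in the 5xFAD mice or in the difference from them. The test of the difference in age effect called 15 genes (0.0804%), each with a smaller age effect in control mice than in 5xFAD mice, and 1885 genes (10.1%) at an unadjusted p under 0.05. TPM shifts the whole comparison: over all genes the median age effect was 0.23 in 5xFAD mice on the log2 scale, and the median difference was -0.31. After median-of-ratios scaling these medians were -0.0015 and -0.02. After that scaling 8 genes were called for the difference, 6 of them among the 15.

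The leading gene was Atp6v0d2, a subunit of the vacuolar proton pump of macrophages and osteoclasts. Control mice had 0.0530, 0 and 0 TPM at 12 months and at most 0.105 at 4 months, while 5xFAD mice had 1.35 to 2.93 TPM at 12 months and at most 0.0854 at 4 months. The difference between the age effects was -2.08 ± 0.32 on the log2(TPM + 0.5) scale (adjusted p = 0.00201 by limma). Mamdc2, a secreted protein with MAM domains, stood at 0.972, 0.219 and 0.903 TPM in control mice at 12 months and at 5.70 to 8.96 in 5xFAD mice of that age, and its 4-month levels were 0.400 to 3.10 and 0.465 to 1.75 TPM. Its difference was -2.95 ± 0.48. Both genes, with Plau, were still called without replicate 2 of the control mice at 12 months.

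Matrix-degrading enzymes and NF-kappaB signalling supplied the next genes by p. Plau, the urokinase plasminogen activator, was at 1.23, 1.55 and 0.519 TPM in control mice at 12 months and at 4.82 to 8.48 TPM in 5xFAD mice, with a difference of -2.26 ± 0.43. Hpse, heparanase, was at 0.244, 0 and 0.713 TPM against 2.93 to 10.3, with a difference of -2.82 ± 0.48. Bcl3, a nuclear partner of NF-kappaB, was at 0.403, 0 and 0.688 TPM against 2.37 to 10.3, with a difference of -2.97 ± 0.57. In none of the 5 did the control samples at 12 months reach the lowest 5xFAD sample of that age. The 5 were chosen by the p of a difference that uses these same values, so the separation follows in part from the choice.

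The other 10 were named after their values were seen. They were the myeloid integrin Itgax (-2.91), the leukocyte phosphatase Ptprc (-1.89), the oxidase subunit Cybb (-2.55), the co-receptor for bacterial lipid Cd14 (-1.88), the SLAM family receptor Ly9 (-2.11) and the interleukin 4 receptor chain Il4ra (-1.87). The class II chain H2-Aa (-4.68), the cathepsins Ctse (-1.57) and Ctsh (-1.49) and Ccdc163 (-1.86) completed the set. Itgax stood at 1.36, 0 and 0.392 TPM in control mice at 12 months and at 19.5 to 29.2 TPM in 5xFAD mice. Ctsh, with the highest median of the 15 in 5xFAD mice at 12 months, stood at 30.0, 24.2 and 27.2 TPM against 69.6 to 112, and at 16.7 to 39.3 TPM in control mice at 4 months. Without replicate 2 of the 12-month control mice, 4 genes were called for the difference, 3 of them among the 15. The count was 38 without replicate 1 and 67 without replicate 3 of that group. It was 24, 23, 7 and 7 without replicates 1, 6, 7 and 8 of the 4-month control mice. In 5xFAD mice it was 4, 6, 3 and 36 without replicates 1, 2, 3 and 4 at 4 months, and 6, 7 and 9 without replicates 3, 6 and 7 at 12 months. Leaving out replicate 2 of the 12-month Csf1r-cre mice, which enters through the shared spread, gave 58.

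By list, 21 of 29 plaque-associated microglia genes and 13 of 15 class I genes were called higher with age in 5xFAD mice. Over all genes that share was 2.69%. In control mice no gene of any list was called, since 0 of all 18659 genes were. These counts are on the TPM scale, and median-of-ratios scaling lowered the 505 genes called in 5xFAD mice to 221. The medians of the plaque-associated list were 1.43 in 5xFAD mice and 0.02 in control mice, and 2 of the 29 were called for the difference itself. Of the 15 class I genes 0 were called for the difference. None of the 22 matrix genes was called in either.

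**Figure D5:**
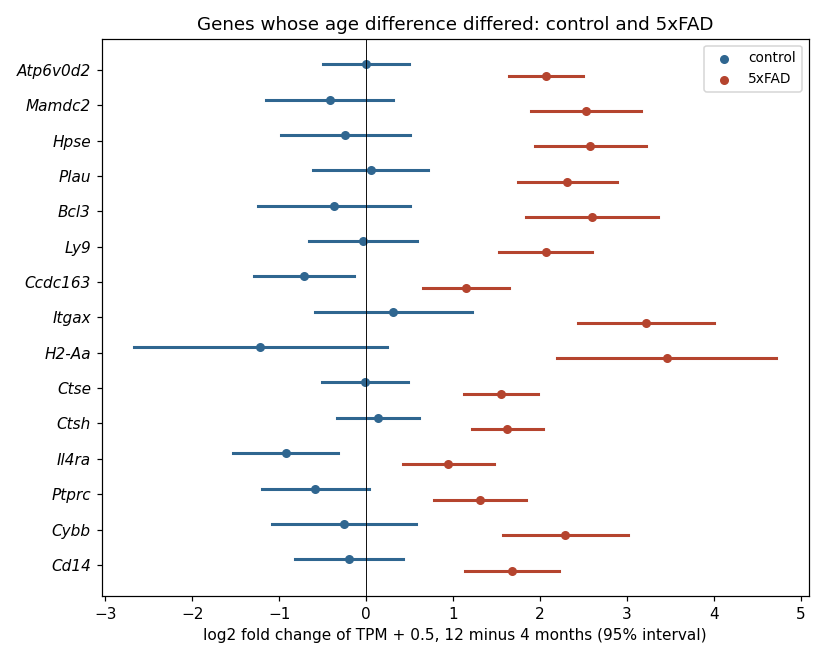
Log2 fold change of TPM + 0.5 from 4 to 12 months, with 95% intervals from limma, for the 15 genes whose age difference differed between control mice (blue, 3 and 8 samples) and 5xFAD mice (red, 7 and 5 samples). Control estimates lie from -1.22 (H2-Aa) to 0.31 (Itgax) and the lowest 5xFAD estimate is 0.95 (Il4ra).

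Mice with Csf1r-cre, a design that removes floxed Apoe from microglia and other myeloid cells, gave no called gene between 12 and 4 months either (0 of 18659), with 1520 (8.15%) at an unadjusted p under 0.05. Replicate 2 of these mice at 12 months stood apart, with a median correlation of 0.886 with the other libraries and 17822 genes above 0. The difference in age effect between control and Csf1r-cre mice was called for no gene by limma (lowest adjusted p 0.308), and 760 genes (4.07%) had an unadjusted p under 0.05. Hdhd3, a haloacid dehalogenase-like hydrolase, had the lowest p: it stood at 13.2, 14.5 and 16.8 TPM at 12 months and 16.0 to 30.3 TPM at 4 months in control mice, and at 18.8 to 41.1 and 14.2 to 18.4 TPM in Csf1r-cre mice. Coa4, Tph2, Ly96 and Myl2 followed, each with a negative log2 fold change in control mice and a positive one in Csf1r-cre mice. Ly96, the co-receptor MD-2 of Toll-like receptor 4, stood at 0.537, 0 and 2.10 TPM against 1.09 to 2.97 in control mice. Myl2, a myosin light chain, stood at 2.32, 0 and 0.604 TPM against 1.27 to 3.43. Without replicate 2 of the 12-month control mice, the log2 fold changes in control mice were -0.41 for Ly96 and -0.64 for Myl2. Leaving out replicate 1 or replicate 3 of the 12-month control mice gave 3 and 4 called genes.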

How the data were processed

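RNA-seq of mouse hippocampus was deposited by the authors as 1 table of TPM values (54532 genes, 45 samples), with gene lengths in bases and mm10 coordinates per the file headers. The tools STAR, featureCounts, edgeR and limma and the build mm10 come from the submitters' processing notes, with versions, roles and use of strand not given in the sources used here. Per the labels' protocols, brains were microdissected, frozen, and sequenced as paired ends on 2 kinds of Illumina instrument, without saying which sample ran on which, and no batch is labelled, so a batch and age cannot be told apart.

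No counts were used. TPM values were whole multiples of 1 read, within a tolerance of 0.02, for all 33023 genes above 0, given 1 length per gene. This gave the estimate of depth. The listed length served for 15330 genes. For the rest the smallest read number that fitted was taken, so the totals can be too low. For a gene above 0 in few samples a fitting length is easily found. Intervals of counting error were not computed, since the tests use the spread between samples.

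Genes at or above 0.5 TPM in at least 3 samples (18659) were tested genome-wide with limma 3.58.1 in R 4.3.3 on log2(TPM + 0.5), with 1 mean per group over all 45 samples, trended variance, two-sided tests and Benjamini-Hochberg adjustment at 0.05. The pseudocount makes fold changes of low genes too small. Differences in age effect were interaction contrasts. Apoe had an exact permutation test. The text names Apoe, the 10 genes with the lowest p (predicted models and sex-linked genes left out), up to 4 genes with the lowest p from each of 44 lists, and 5 for each difference; some genes chosen by this rule are not reported here. Members and lists were chosen with earlier results of these data known. The fit was also run on simulated data, drawn as independent normal values with 1 spread per gene in all groups. Those data held no library that stands apart and no shift shared by many genes. That run therefore does not bear on such features of the real samples. Alternatives changed the pseudocount, filter, scaling, samples, weights and covariates. Figures were drawn with matplotlib 3.10.9 in Python 3.11.15. No sequences are shown, as no sequence bears on these results.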

Additional observations from a re-analysis of the deposited data

Results flagged for a closer look

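In control mice at 4 months, 1 sample lay far from the other 7 for these values. Replicate 8 had 8.16 TPM of Col3a1 (next highest 2.05), 26.1 TPM of H2-Aa (12.1), 16.2 TPM of H2-Eb1 (7.83) and 124 TPM of Gjb6 (77.8). Replicate 7 had 53.4 TPM of Kcnj13, a potassium channel of choroid plexus (16.7), and 21.7 TPM of Igkc (1.87). Replicate 5 had 1.27 TPM of Cdkn2a (0.373), 40.5 TPM of Ighm (23.1) and 1024 TPM summed over the blood markers (492). Replicate 6 had 1.11 TPM of Il4ra (next lowest 2.74), and replicate 4 had 4.69 TPM of Cd14 (next highest 3.60). In 5xFAD mice, replicate 4 at 4 months had 15.7 TPM of H2-Aa (3.94) and 0.0854 TPM of Atp6v0d2 (all others at 0), and replicate 4 at 12 months had 2.93 TPM of Atp6v0d2 (1.67). Of 129 groups examined 14 were flagged. The rule would flag about 5% of groups by chance if the values were normally spread. It was applied to TPM without logs, where that share need not hold. In the same samples replicate 7 also had the highest choroid plexus sum (7905 TPM) of the control samples at 4 months.

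For 15 genes the age effect differed between control and 5xFAD mice by the interaction test in limma. The differences, control minus 5xFAD on the log2 scale, were -2.08 for Atp6v0d2, -2.95 for Mamdc2, -2.82 for Hpse, -2.26 for Plau, -2.97 for Bcl3, -2.11 for Ly9, -1.86 for Ccdc163 and -2.91 for Itgax. They were -4.68 for H2-Aa, -1.57 for Ctse, -1.49 for Ctsh, -1.87 for Il4ra, -1.89 for Ptprc, -2.55 for Cybb and -1.88 for Cd14.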

How the results depend on the processing

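The count of 0 genes between 12 and 4 months in control mice became 6 with no filter, 10 after median-of-ratios scaling, 52 with array weights, 2 without both libraries that stand apart (replicate 2 of the 12-month control and Csf1r-cre mice), and 0 to 36 over leaving out 1 replicate at a time. The 2 were A530053G22Rik and Gm23814, which were also the 2 called without replicate 2 of the 12-month control mice alone. The remaining alternatives, which include sex-linked and region marker covariates added after the data were seen, gave 0. In 5xFAD mice the 505 became 221 after median-of-ratios scaling, 225 without Gm23935 and the mitochondrial genes, 1219 with array weights, 1109 without both libraries, 769 with region markers as covariates and 192 to 572 over leaving out 1 replicate (192, 241 and 283 without replicates 3, 1 and 2 of the 4-month 5xFAD mice, and 309 without replicate 6 at 12 months). The 15 genes of the difference from 5xFAD mice became 3 with a pseudocount of 0.1, 3 with no filter, 8 after median-of-ratios scaling, 6 without Gm23935 and the mitochondrial genes, 147 with array weights, 5 without both libraries, 32 with region markers and 3 to 67 over leaving out 1 replicate. Atp6v0d2 was called in 36 of 36 alternatives. For the difference from Csf1r-cre mice array weights gave 1, and leaving out 1 replicate gave 0 to 4. Csf1r-cre ageing gave 0 throughout, and Apoe kept its direction, from -0.21 to -0.04. The cause of these shifts was not tested.

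The labels do not say that the replicate numbers pair the samples. For replicates 1, 2 and 3 the correlations of deviations were -0.01, 0.35 and 0.11. The same-numbered sample ranked 6, 1 and 2 among those at 4 months, so 1 of 3 correlated best with its own number. These 3 values are too few to decide whether the numbers pair the samples. With the replicate block, the counts were 0 for control, 289 for 5xFAD mice and 1 for the difference from 5xFAD mice.

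Of 1746 gene values in control mice under the alternatives, 16 changed sign. Without both libraries, and likewise without replicate 2 of the 12-month control mice alone, the log2 fold change was 0.0198 for C1ql2, 0.0559 for Tdo2, 0.0152 for Otx2, 0.27 for Kcnj13, 0.0238 for H2-Aa, 0.16 for Psmb9 and 0.0379 for Gjb6. These were the highest values over leaving out 1 replicate, and the lowest were -3.02 for C1ql2, -1.68 for Tdo2, -2.94 for Otx2, -2.57 for Kcnj13, -2.31 for H2-Aa, -1.24 for Psmb9 and -1.16 for Gjb6. It was 0.40 for Kcnj13 with the replicate block. With region markers it was -0.11 for Trem2. Depth limits the low genes, since 1 read on 1000 bases was worth up to 0.0902 TPM.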
